A study of Homo sapiens with 12 samples.

Results

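The well expressed ZNF zinc finger genes were described in naive H9 cells, an established line of human embryonic stem cells, after transfection with oligonucleotides against the RNA of the mobile element LINE1 (L1). Genes were taken from the raw count table where the symbol was ZNF, a number and at most 1 further letter, and where the mean level over all 12 libraries was at least 10 CPM (the count over the column total, at the usual CPM scale). This gave 330 genes of 553 symbols with that pattern, out of 53712 named genes in the table. The members were thus chosen by their mean level, and levels are given as a description. Just inside the limit stood ZNF250, ZNF572 and ZNF853 at 10.2, 10.2 and 10.1 CPM, and just outside it ZNF137P, ZNF527 and ZNF891 at 9.80, 9.80 and 9.70 CPM. The median member had 24.4 CPM, 15 members had at least 100 CPM, and the highest was ZNF146 at 264 CPM. CPM depends on transcript length, so its order among genes is not an order of transcript number. All 330 symbols matched an entry of RefSeq, 323 by the current and 7 by an older symbol, and 324 were protein coding and 6 of pseudogene type.

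ZNF symbols name proteins with zinc fingers of the C2H2 kind, small folds that each hold a zinc ion and contact DNA or RNA. The largest class in primates carries a KRAB domain, which recruits the corepressor TRIM28. TRIM28 in turn brings the histone methyltransferase SETDB1 and HP1 proteins, so that the bound site is packed into silent chromatin. Many KRAB zinc finger proteins bind transposable elements, L1 among them, and embryonic stem cells depend on this silencing. Their genes arose by repeated duplication and lie in dense clusters on chromosome 19. Other ZNF proteins have no KRAB domain and work in chromatin complexes, RNA processing, ribosome quality control or mitosis.

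The study asked what L1 does in the control of genes of the 8-cell stage in naive cells. The cells grew in RSeT medium and belonged to 3 groups of 4 libraries each. ASO-L1 cells received antisense oligos to L1, SO-L1 cells sense oligos to L1, and ASO-Ctr cells control antisense oligos, all at 25 nM. Every group was also given 10 nM DZNep, an inhibitor of S-adenosylhomocysteine hydrolase that lowers histone methylation, and 5 nM TSA, a histone deacetylase inhibitor, so no group shows the ZNF genes without these agents. Trans-ISRIB, emricasan and Y-27632 had been present in all groups for the first 24 h, and unsorted cells were harvested at 48 h for stranded poly(A) libraries. Whether the 4 libraries of a group came from separate cultures is not stated, so p-values measure the spread between these libraries, which may be technical.

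The libraries held between 20367989 and 32180891 counts, of which the members took between 1.18 and 1.24%. All 12 pluripotency markers examined, POU5F1, SOX2 and NANOG among them, were at or above 1 CPM in every library, with summed levels of 7613 to 7978 CPM in ASO-L1, 8320 to 8702 CPM in SO-L1 and 8592 to 9041 CPM in ASO-Ctr. In ASO-L1, 5 of the 12 were lower than in ASO-Ctr and 0 higher, and the 5 mesendoderm markers in the table summed to 77.5 to 129 CPM in ASO-L1, 19.6 to 31.4 CPM in SO-L1 and 18.8 to 28.7 CPM in ASO-Ctr. Neural markers summed to 988 to 1042 CPM in ASO-L1, 836 to 954 CPM in SO-L1 and 759 to 873 CPM in ASO-Ctr. Primitive endoderm markers summed to 17.0 to 20.5, 23.6 to 29.2 and 24.7 to 31.0 CPM in ASO-L1, SO-L1 and ASO-Ctr. The genes of the neural and primitive endoderm lists did not move together. Against ASO-Ctr, 1 of 6 neural markers tested was higher and 1 lower, and 1 of 3 primitive endoderm markers was higher and 1 lower. Of 8 naive markers tested, 4 were higher than in ASO-Ctr and 0 lower. Of 2 mesendoderm, 7 fibroblast and feeder, and 4 trophectoderm and amnion markers tested, 2 of each list were higher and 0 lower. Of 7 primed markers, 1 was higher and 1 lower. Among all genes tested, 11.6% were higher and 10.7% lower. The marker shifts moved with the ASO-L1 group, and their part in the ZNF results was not tested. In bulk RNA, fewer cells of a type and less RNA per cell cannot be told apart. Libraries numbered 1 and 2 also stood apart from those numbered 3 and 4 in every group, for which no label gives a reason.

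Promoters are shown for the 3 members with the smallest p in each direction of ASO-L1 against ASO-Ctr that had a RefSeq promoter entry, because the later motif counts rest on such windows. Each run is the last 150 bases before the RefSeq gene start (build GRCh38.p14), 5′ to 3′ on the strand of the gene. Capitals mark matches, on either strand, to ETS (CCGGAAG), SP1 (GGGCGG) and CCAAT box (CCAAT) letters; the other motifs searched had no match in these windows. The counts themselves were made by the authors on build hg19.
ZNF655 (higher; chr7:99558492-99558641, plus strand): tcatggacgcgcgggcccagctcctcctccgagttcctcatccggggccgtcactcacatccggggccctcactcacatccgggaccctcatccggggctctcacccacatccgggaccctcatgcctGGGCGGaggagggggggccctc
ZNF669 (higher; chr1:247104357-247104506, minus strand): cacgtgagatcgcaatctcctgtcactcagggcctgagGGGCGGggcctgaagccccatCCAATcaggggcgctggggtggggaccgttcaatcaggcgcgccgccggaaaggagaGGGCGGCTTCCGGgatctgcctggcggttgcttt
ZNF256 (higher; chr19:57947707-57947856, minus strand): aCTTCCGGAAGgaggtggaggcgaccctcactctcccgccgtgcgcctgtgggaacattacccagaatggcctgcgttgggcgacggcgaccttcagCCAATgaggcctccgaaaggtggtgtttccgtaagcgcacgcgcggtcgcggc
ZNF514 (lower; chr2:95159586-95159735, minus strand): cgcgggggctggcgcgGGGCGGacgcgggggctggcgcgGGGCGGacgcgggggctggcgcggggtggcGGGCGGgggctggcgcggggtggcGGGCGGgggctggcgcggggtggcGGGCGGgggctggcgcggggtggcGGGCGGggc
ZNF664 (lower; chr12:123973065-123973214, plus strand): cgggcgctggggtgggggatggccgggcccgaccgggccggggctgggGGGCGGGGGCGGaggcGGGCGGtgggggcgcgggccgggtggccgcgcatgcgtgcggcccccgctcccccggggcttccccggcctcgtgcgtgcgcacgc
ZNF146 (lower; chr19:36214956-36215105, plus strand): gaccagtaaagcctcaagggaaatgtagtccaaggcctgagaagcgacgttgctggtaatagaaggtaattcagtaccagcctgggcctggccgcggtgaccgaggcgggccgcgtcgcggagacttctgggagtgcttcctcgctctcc
The windows of ZNF669 and ZNF256 hold both ETS and CCAAT matches. Those of ZNF514 and ZNF664 hold repeated SP1 matches, and ZNF146 holds none of the motifs.

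ASO-L1 against ASO-Ctr asks how oligos against L1 RNA alter expression. Of the 330 ZNF genes, 57 rose and 21 fell in ASO-L1, and 252 did not pass the threshold (edgeR quasi-likelihood F test, two-sided, Benjamini-Hochberg adjusted p under 0.05 over 17228 genes). That is 17.3% higher and 6.36% lower, where 11.6% of all genes tested were higher and 10.7% lower, 22.3% in either direction. Among the 9907 genes with the same mean of at least 10 CPM, 13.1% were higher, 14.4% lower and 27.5% called either way. The share of members called in either direction, 23.6%, thus lay between these backgrounds, while the split between higher and lower differed from them; that difference was not tested. With the library number as a block, 114 members were higher and 50 lower, where 22.5% of all genes tested were higher and 22.5% lower, 45.0% in either direction, and 26.6 and 29.8% of genes of at least 10 CPM.

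The changes were small. The median log2 fold change of all 330 members was 0.05, with quartiles of -0.07 and 0.18, and 205 were above 0; over all genes tested the median lay within 0.01 of 0. Called higher members differed by a median of 1.22-fold. At least 1.5-fold changes were called for 2 higher members, ZNF165 and ZNF473, and for 1 lower member, ZNF780B, and ZNF165 alone exceeded 2-fold. All 4 ASO-L1 libraries lay above all 4 ASO-Ctr libraries for 66 members and below them for 26, where 13.3 and 12.2% of all genes tested did so.

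**Figure D1:**
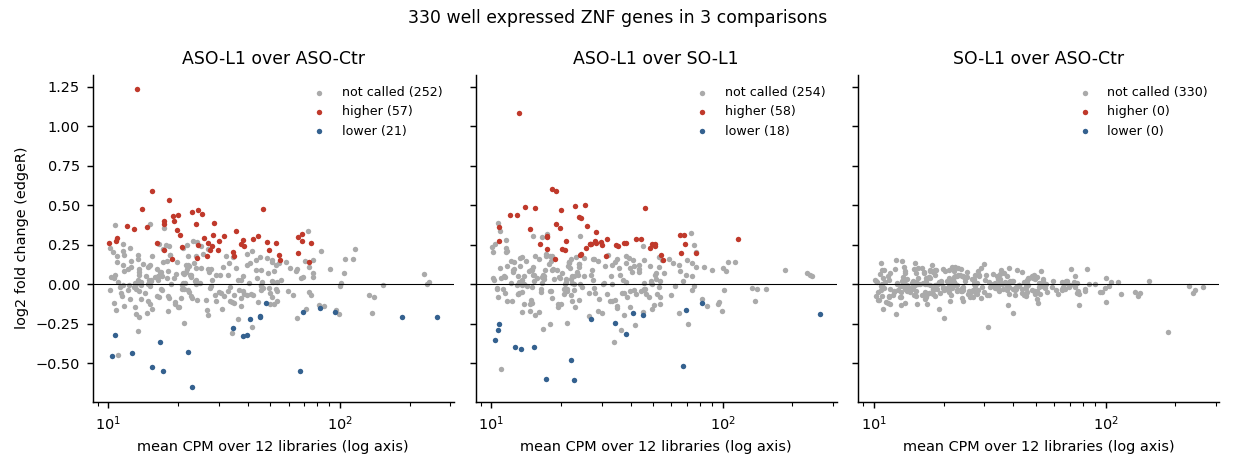
Log2 fold change (vertical) against mean CPM over 12 libraries (horizontal, log axis) for the 330 ZNF genes in ASO-L1 over ASO-Ctr, ASO-L1 over SO-L1 and SO-L1 over ASO-Ctr, each point 1 gene. Red points (57, 58 and 0) were higher and blue points (21, 18 and 0) lower at an adjusted p under 0.05, and the panel of SO-L1 over ASO-Ctr holds neither.

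ZNF165, a SCAN domain protein known as a cancer-testis antigen, showed the largest rise among the members. It had 16.9, 17.2, 26.2 and 23.4 CPM in ASO-L1, 7.81, 7.33, 11.8 and 12.3 in SO-L1 and 7.48, 7.82, 9.83 and 10.4 in ASO-Ctr. Every ASO-L1 library was above every other library, and within each group numbers 3 and 4 were above 1 and 2. The log2 fold change against ASO-Ctr was 1.23 ± 0.20 (edgeR adjusted p = 6.85e-04). ZNF473, which as ZFP100 belongs to the U7 snRNP that cleaves histone pre-mRNA, had 17.997, 18.02, 20.97 and 21.1 CPM in ASO-L1, 12.2, 13.4, 14.4 and 15.8 in SO-L1 and 11.5, 11.6, 14.2 and 14.5 in ASO-Ctr, a log2 fold change of 0.59 ± 0.10 (edgeR adjusted p = 0.00139). Its ASO-L1 libraries did not overlap with those of either other group.

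ZNF655, a partner of the signalling protein VAV1, had the smallest p of the higher members. Its levels were 78.1, 77.3, 74.8 and 78.2 CPM in ASO-L1, 65.2, 63.9, 64.4 and 65.01 in SO-L1 and 64.5, 62.1, 66.3 and 62.1 in ASO-Ctr. The rise was small against a narrow spread, 0.27 ± 0.04 on the log2 scale (edgeR adjusted p = 2.10e-04). ZNF280B, a relative of the fly protein suppressor of hairy wing, had 15.7, 16.9, 17.4 and 19.2 CPM in ASO-L1, 12.2, 12.3, 12.5 and 12.2 in SO-L1 and 12.7, 12.3, 12.1 and 12.6 in ASO-Ctr, with a log2 fold change of 0.48 ± 0.07 (edgeR adjusted p = 2.32e-04). The KRAB gene ZNF669 had 28.2, 26.6, 28.5 and 30.1 CPM in ASO-L1, 20.3, 19.97, 21.1 and 18.99 in SO-L1 and 17.8, 21.2, 21.6 and 21.7 in ASO-Ctr, a log2 fold change of 0.46 ± 0.07 (edgeR adjusted p = 4.74e-04). In both genes the 4 ASO-L1 libraries were the 4 highest of the 12.

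ZNF256, a KRAB gene of the distal chromosome 19 cluster, averaged 31.2 ± 2.56 CPM in ASO-L1 and 22.9 ± 1.28 CPM in ASO-Ctr (SD, n = 4 each; log2 fold change 0.44 ± 0.07). ZNF367, known as an activator of globin genes in erythroid cells, averaged 20.2 ± 1.31 and 15.5 ± 0.534 CPM in ASO-L1 and ASO-Ctr (0.38 ± 0.06). ZNF671, a KRAB gene often silenced by methylation in tumours, averaged 20.4 ± 1.18 and 15.4 ± 0.903 CPM (0.40 ± 0.07), in the same order of groups. All 3 kept their ASO-L1 libraries above every ASO-Ctr library. The rest of the first 12 by p were ZNF354A, named Kid1 in rat kidney (0.38 ± 0.07), the BTB domain gene ZNF131 (0.27 ± 0.05), ZNF114 (0.40 ± 0.07) and ZNF317 (0.30 ± 0.06), each without overlap between ASO-L1 and ASO-Ctr. Adjusted p-values of these 7 genes lay between 4.86e-04 and 0.00187 in the edgeR quasi-likelihood test.

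**Figure D2:**
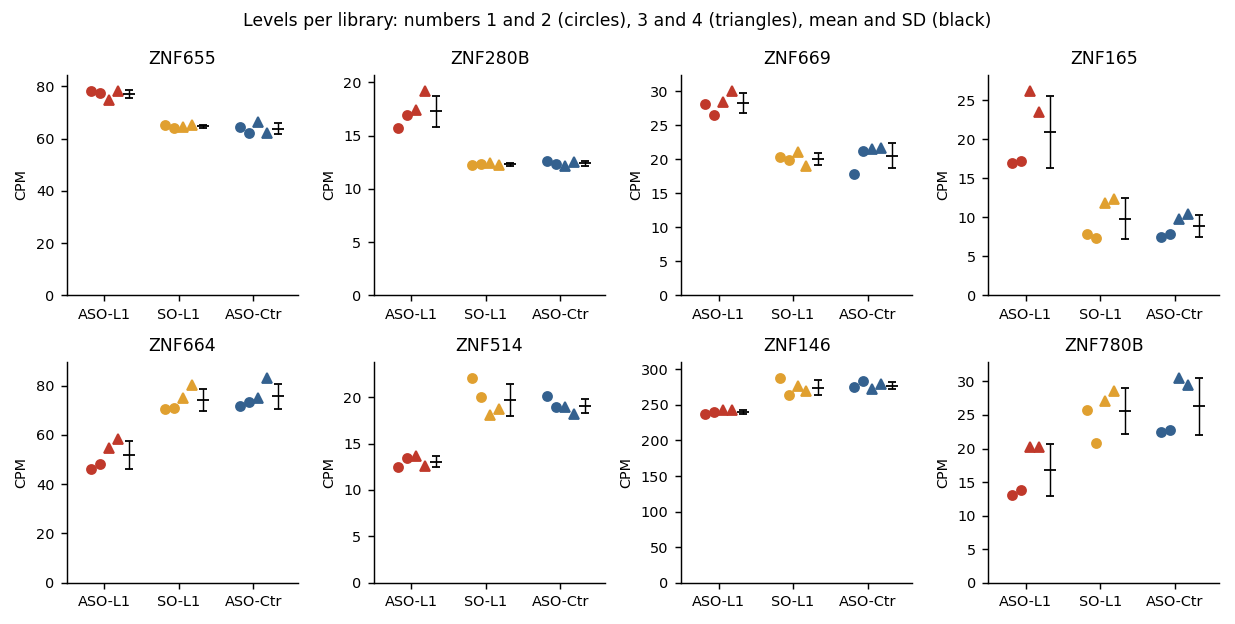
CPM per library (vertical, from 0) of 4 members higher in ASO-L1 (top row) and 4 lower (bottom row), with ASO-L1, SO-L1 and ASO-Ctr from left to right; circles are numbers 1 and 2, triangles 3 and 4, and black bars the mean and SD of 4 libraries. In all 8 genes the ASO-L1 libraries do not overlap with either other group, and in ZNF165, ZNF664 and ZNF780B numbers 3 and 4 lie above 1 and 2 within ASO-L1 and ASO-Ctr.

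Among the lower members, ZNF664 fell to 46.2, 48.3, 54.8 and 58.2 CPM in ASO-L1, against 70.4, 70.7, 74.9 and 80.1 in SO-L1 and 71.5, 73.2, 74.8 and 82.96 in ASO-Ctr. The log2 fold change was -0.54 ± 0.08 (edgeR adjusted p = 2.43e-04), with no overlap of ASO-L1 with either group. ZNF514, a KRAB gene on chromosome 2, had 12.4, 13.4, 13.7 and 12.6 CPM in ASO-L1, 22.04, 19.97, 18.1 and 18.7 in SO-L1 and 20.1, 18.95, 18.9 and 18.2 in ASO-Ctr (-0.55 ± 0.07, edgeR adjusted p = 1.41e-04). It had the smallest p of all members in this comparison. ZNF146, also called OZF, consists almost only of zinc fingers and has been reported to bind L1 sequences. Its levels were 237, 239.7, 243 and 242 CPM in ASO-L1, 287, 264, 276 and 269.7 in SO-L1 and 275, 283, 272 and 279 in ASO-Ctr. It fell by 0.20 on the log2 scale (SE 0.03, edgeR adjusted p = 9.92e-04), and this left every ASO-L1 library below every other library.

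ZNF780B had the largest fall, with 13.1, 13.7, 20.2 and 20.2 CPM in ASO-L1, 25.7, 20.8, 27.1 and 28.6 in SO-L1 and 22.4, 22.8, 30.5 and 29.5 in ASO-Ctr (-0.65 ± 0.16, edgeR adjusted p = 0.0122). ASO-L1 lay below ASO-Ctr in all 4 same-number pairs, and numbers 3 and 4 were above 1 and 2 in ASO-L1 and ASO-Ctr. ZNF618, known to read hydroxymethylated DNA together with UHRF2, averaged 32.8 ± 0.630 CPM in ASO-L1 and 41.1 ± 1.83 CPM in ASO-Ctr (-0.33 ± 0.05, edgeR adjusted p = 8.34e-04). ZNF619 (-0.45 ± 0.07), ZNF841 (-0.43 ± 0.07), ZNF626 (-0.43 ± 0.09), ZNF793 (-0.27 ± 0.06), ZNF613 (-0.22 ± 0.05), ZNF878 (-0.52 ± 0.13) and ZNF407 (-0.32 ± 0.08) completed the first 12 lower members by p. None of these 7 overlapped between ASO-L1 and ASO-Ctr. Of the first 12 lower members, ZNF146, ZNF841, ZNF626, ZNF793, ZNF613, ZNF878 and ZNF780B lie on chromosome 19.

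The other 45 higher members had log2 fold changes between 0.14 (ZNF195) and 0.53 (ZNF200), and the other 9 lower members between -0.36 (ZNF629) and -0.11 (ZNF607), names given here after their values were seen. Every one of the 78 called members moved the same way in all 4 pairs of libraries with the same number. The calls rest on these same libraries, so this describes the called members and is no further support. In DESeq2, 56 of the 57 higher and all 21 lower members were called too, and 34 higher and 13 lower members were called in each of the 20 alternative fits, which include leaving out any 1 library. The 34 and 13 include all of the first 12 in each direction.

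Of 11 listed KRAB genes known to bind transposable elements 10 were members, of which 1 was higher in ASO-L1 than in ASO-Ctr and 0 were lower. That gene was ZNF141, which binds L1 elements, with 32.5, 33.3, 26.7 and 28.9 CPM in ASO-L1, 27.1, 26.04, 23.9 and 24.6 in SO-L1 and 25.01, 26.8, 24.1 and 25.3 in ASO-Ctr (0.26 ± 0.07, edgeR adjusted p = 0.0226). Its groups overlapped, and the call was lost without ASO-L1 library 1 or 2 or ASO-Ctr library 1 or 3, at log2 fold changes of 0.21 to 0.26 (adjusted p between 0.0537 and 0.0883). ZNF93, which silences a class of L1, had 74.3, 68.8, 65.5 and 62.6 CPM in ASO-L1 and 66.4, 66.8, 61.2 and 60.8 CPM in ASO-Ctr (0.09 ± 0.06, adjusted p = 0.329 by edgeR). ZNF91, which silences SVA elements, had 40.9, 44.6, 38.2 and 37.03 CPM in ASO-L1 and 40.4, 42.3, 35.1 and 37.2 CPM in ASO-Ctr (0.05 ± 0.09, adjusted p = 0.723). Both had overlapping groups. ZNF649, also an L1 binder, stood at 153 ± 8.20 CPM in ASO-L1 and 154 ± 4.21 CPM in ASO-Ctr, and ZNF765, another, at 45.9 ± 1.60 and 46.6 ± 3.37 CPM (SD, n = 4 each). The SVA binder ZNF611 had 0.18 ± 0.11 (edgeR adjusted p = 0.266, and 0.0148 with the block). ZNF417 (-0.03 ± 0.06) and ZNF587 (0.10 ± 0.06), closely related binders of HERV-K elements whose reads may be split between them, and ZNF248 (-0.01 ± 0.10) and ZNF425 (0.06 ± 0.07) did not pass either. The median of the 10 members was 0.06, next to 0.05 for all 330. The 1 call among these 10 stands beside 27.5% of genes of at least 10 CPM called in either direction.

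Of 10 listed ZNF genes tied to stem cell self-renewal, 8 were members, and 0 were higher and 0 lower at the edgeR threshold. With the block 1 was higher and 2 were lower. Among all genes of at least 10 CPM, 27.5% were called in either direction, and 56.3% with the block. ZNF207, a microtubule and BUB3 binding protein of mitosis, had 242, 243, 241 and 226 CPM in ASO-L1 and 237, 221, 231 and 223 CPM in ASO-Ctr (0.06 ± 0.04, edgeR adjusted p = 0.267). ZNF398, a factor of the primed state, had 137, 129.8, 128 and 129.6 CPM in ASO-L1 and 133, 139, 139 and 139 CPM in ASO-Ctr (-0.07 ± 0.04). The groups overlapped for both genes. ZNF143, which binds promoters and chromatin loop anchors (0.11 ± 0.05, edgeR adjusted p = 0.117), passed with the block at 0.0473. ZNF462 (-0.16 ± 0.07, adjusted p = 0.111 without and 0.0186 with the block) and ZNF483 (-0.19 ± 0.07, adjusted p = 0.0821 and 0.0151) were the 2 that passed below 0 with it. ZNF281 (0.05 ± 0.05), ZNF589 (0.02 ± 0.04) and ZNF296 (-0.07 ± 0.23) did not pass either way. ZNF296 had the widest spread of the list, with 34.1, 31.8, 21.6 and 22.3 CPM in ASO-L1 and 33.4, 37.3, 21.9 and 22.4 CPM in ASO-Ctr. In each group its libraries 1 and 2 were well above 3 and 4, whereas ASO-L1 and ASO-Ctr overlapped.

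Of 9 listed ZNF genes of RNA, ribosomes and splicing, 8 were members, and 2 were higher and 1 lower. With the block 5 were higher and 3 lower, so that every member of the list passed in 1 direction or the other. Among all genes of at least 10 CPM, 27.5% were called in either direction, and 56.3% with the block. ZNF598, the ubiquitin ligase that marks collided ribosomes, had 80.1, 85.4, 88.3 and 83.2 CPM in ASO-L1, 62.96, 67.2, 78.7 and 74.3 in SO-L1 and 73.3, 58.5, 77.6 and 72.2 in ASO-Ctr (0.26 ± 0.09, edgeR adjusted p = 0.0457). The 4 ASO-L1 libraries were the 4 highest, but 1 ASO-Ctr library, number 2, was far below the others, and without it the log2 fold change was 0.18 (adjusted p = 0.110). The call was also lost without any single ASO-L1 library, without ASO-Ctr library 1 or 4 and without SO-L1 library 2 or 4, with adjusted p-values between 0.0546 and 0.112, under library total scaling (0.0515) and in numbers 1 and 2 (0.0733). ZNF330, a nucleolar protein, had 56.98, 52.5, 55.8 and 54.5 CPM in ASO-L1, 48.5, 47.97, 43.2 and 44.2 in SO-L1 and 48.1, 50.95, 43.4 and 46.8 in ASO-Ctr (0.22 ± 0.06, edgeR adjusted p = 0.0170). Its ASO-L1 libraries did not overlap with the rest, and the call was lost without ASO-L1 library 1 (0.19, adjusted p = 0.0678) or ASO-Ctr library 3 (0.17, adjusted p = 0.0699). ZNF638, which binds DNA and RNA and works with the HUSH complex in silencing retroviral DNA, was lower (-0.20 ± 0.05, edgeR adjusted p = 0.0133), and is described further under the sense oligo. ZNF622, a ribosome maturation factor (0.14 ± 0.10), ZNF326, which joins splicing to transcript elongation (0.15 ± 0.06), and ZNF385A (0.21 ± 0.09) passed above 0 with the block, at adjusted p-values of 0.00257, 4.03e-04 and 0.0239. ZNF106 (-0.19 ± 0.07) and the double-stranded RNA binder ZNF346 (-0.17 ± 0.11) passed below 0 with the block, at 1.57e-04 and 0.0139.

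Of 17 listed ZNF genes of chromatin complexes, 16 were members, of which 1 was higher and 3 lower, and 4 and 5 with the block. Among all genes of at least 10 CPM, 13.1% were higher and 14.4% lower, and 26.6 and 29.8% with the block. ZNF335, a component of a histone H3 lysine methyltransferase complex, had 47.3, 48.5, 55.3 and 52.1 CPM in ASO-L1, 37.2, 37.8, 46.2 and 45.01 in SO-L1 and 38.2, 36.5, 45.4 and 44.3 in ASO-Ctr (0.31 ± 0.09, edgeR adjusted p = 0.0290). ASO-L1 did not overlap with ASO-Ctr, and numbers 3 and 4 were above 1 and 2 in each group; without ASO-L1 library 3 or 4 or ASO-Ctr library 1 or 2 the adjusted p rose to between 0.0615 and 0.0875. ZNF592, ZNF687 and ZNF532 are paralogs that join ZMYND8 in a chromatin complex. ZNF592 had 39.1, 41.2, 42.4 and 41.6 CPM in ASO-L1 and 43.7, 44.8, 50.5 and 50.4 CPM in ASO-Ctr (-0.20 ± 0.06, edgeR adjusted p = 0.0351). ZNF687 had 77.6, 77.9, 77.8 and 74.2 CPM in ASO-L1 and 81.8, 85.3, 86.4 and 86.9 CPM in ASO-Ctr (-0.15 ± 0.04, edgeR adjusted p = 0.0124). Both fell without overlap. ZNF592 lost its call without any single ASO-L1 library and without ASO-Ctr library 3 or 4 (adjusted p between 0.0518 and 0.101), under library total scaling (0.0593), without the filter on low counts (0.0589) and in numbers 1 and 2 (0.0536). ZNF687 lost its call without the filter (adjusted p = 0.0998) and in numbers 1 and 2 (0.0786). ZNF532, with 242 ± 21.7 CPM in ASO-L1 and 241 ± 15.5 CPM in ASO-Ctr, had 0.01 ± 0.06. ZNF827, which recruits the NuRD complex to telomeres, averaged 41.4 ± 3.22 CPM in ASO-L1 and 47.6 ± 1.19 CPM in ASO-Ctr (-0.20 ± 0.06, edgeR adjusted p = 0.0296), and lost the call without ASO-L1 library 3 or 4 or ASO-Ctr library 1 or 3 (adjusted p between 0.0637 and 0.0867), without the filter (0.0677) and in numbers 1 and 2 (0.141). ZNF274, which recruits SETDB1 to the 3′ ends of ZNF genes, had 43.9, 42.4, 48.7 and 44.3 CPM in ASO-L1 and 35.1, 34.1, 44.1 and 41.4 CPM in ASO-Ctr (0.21 ± 0.09). Its groups overlapped, and it passed with the block (adjusted p = 1.31e-04), in numbers 1 and 2 and without ASO-Ctr library 3. The block also called ZNF516 (0.25 ± 0.24) and ZNF518B (0.25 ± 0.12) higher and ZNF512B (-0.21 ± 0.09) and the corepressor ZNF217 (-0.08 ± 0.08) lower. ZNF445, a guardian of imprints (0.04 ± 0.07), ZNF518A (0.07 ± 0.06), ZNF644 (0.01 ± 0.05), ZNF219 (-0.06 ± 0.10), ZNF451 (-0.07 ± 0.10) and ZNF711 (-0.11 ± 0.07) passed in neither fit.

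**Figure D3:**
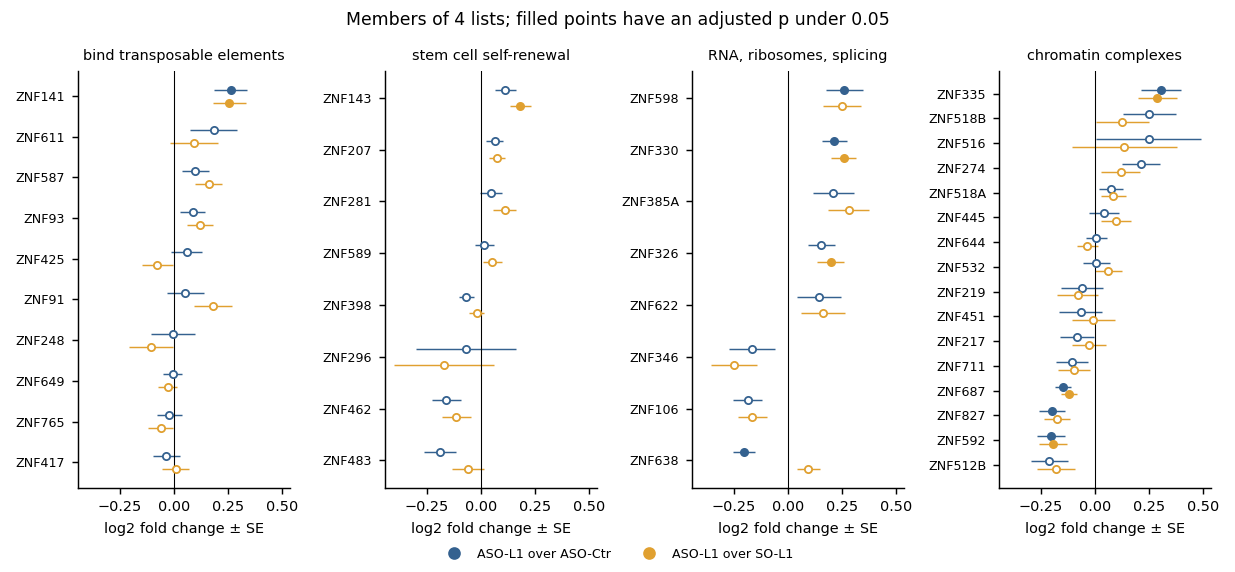
Log2 fold change with SE (horizontal) of the members of 4 lists (vertical), blue for ASO-L1 over ASO-Ctr and yellow for ASO-L1 over SO-L1, which share the ASO-L1 libraries; filled points have an adjusted p under 0.05. Most points are open, and the values of ZNF638 lie on opposite sides of 0, at -0.20 (filled) and 0.09 (open), as do the open points of ZNF425, ZNF417 and ZNF644.

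Of 21 listed genes of the corepressor machinery that KRAB proteins use, none of which is a ZNF gene, all were tested. In ASO-L1 relative to ASO-Ctr 1 rose and 3 fell (3 and 10 with the block). Among all genes of at least 10 CPM, 13.1% were higher and 14.4% lower, and 26.6 and 29.8% with the block. Whether the list differed from these shares was not tested. TRIM28 averaged 1271 ± 22.8 CPM in ASO-L1 and 1189.6 ± 37.1 CPM in ASO-Ctr (0.10 ± 0.03, edgeR adjusted p = 0.0526, and 0.00375 with the block). SETDB1 averaged 42.1 ± 1.38 CPM in ASO-L1 and 46.7 ± 1.95 CPM in ASO-Ctr and was lower (-0.15 ± 0.05, edgeR adjusted p = 0.0356). Its stabilising partner ATF7IP (-0.32 ± 0.09) and the HP1 gene CBX1 (-0.15 ± 0.05) were also lower, and DAXX, a histone H3.3 chaperone, was higher (0.48 ± 0.09, edgeR adjusted p = 0.00175).

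ASO-L1 against SO-L1 sets the antisense oligos to L1 against sense oligos to L1, and shares its ASO-L1 libraries with the comparison above. Here 58 members were higher and 18 lower (17.6 and 5.45%), where 10.7% of all genes tested were higher and 9.64% lower, 20.3% in either direction, and 12.2 and 13.1% of genes of at least 10 CPM. With the block, 122 were higher and 49 lower, where 21.6% of all genes tested were higher and 21.7% lower, 43.4% in either direction, and 25.9 and 28.4% of genes of at least 10 CPM. The median log2 fold change was 0.06, 214 members were above 0, and 68 members had all ASO-L1 libraries above and 24 all below the SO-L1 libraries (12.7 and 11.5% of all genes tested). In the authors' deposited table for this comparison, 85 of the 330 were higher and 31 lower at an adjusted p under 0.05. The member median there was 0.06. That is 35.2% called, against 25.1% of its 21414 genes (2764 higher and 2607 lower). Those genes include many below 10 CPM, so these shares are not at a like level.

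The 8 higher members with the smallest p were ZNF280B, ZNF256, ZNF669, ZNF655, ZNF354A, ZNF548, ZNF317 and ZNF408. ZNF280B had a log2 fold change of 0.49 ± 0.07 here and 0.48 ± 0.07 against ASO-Ctr, and ZNF256 had 0.50 ± 0.07 here and 0.44 ± 0.07 against ASO-Ctr. ZNF548 had 14.4, 14.1, 15.2 and 13.9 CPM in ASO-L1, 11.1, 10.9, 10.2 and 10.3 in SO-L1 and 11.96, 11.7, 10.7 and 10.2 in ASO-Ctr (0.44 ± 0.07, edgeR adjusted p = 7.53e-04), and ZNF408, a gene of retinal vessel development, 24.9, 22.4, 25.5 and 25.3 CPM in ASO-L1, 15.3, 17.3, 19.3 and 18.6 in SO-L1 and 16.7, 16.8, 19.5 and 19.4 in ASO-Ctr (0.47 ± 0.08, edgeR adjusted p = 0.00170). For both genes the 4 ASO-L1 libraries were the highest of the 12. The 8 lower members with the smallest p were ZNF514, ZNF664, ZNF841, ZNF618, ZNF146, ZNF619, ZNF626 and ZNF793. Their log2 fold changes lay between -0.60 (ZNF514) and -0.19 (ZNF146), next to -0.55 and -0.20 against ASO-Ctr. ZNF165 had 1.084 ± 0.20 and ZNF780B -0.61 ± 0.16, again the largest changes in their directions. Of the list members, ZNF141, ZNF143, ZNF330, ZNF326 and ZNF335 were higher and ZNF592 and ZNF687 lower than in SO-L1. Except for ZNF330, each of these calls was lost without at least 1 library: ZNF141 without ASO-L1 1 or 2 or SO-L1 3 or 4 (adjusted p 0.0674 to 0.0992), ZNF143 without ASO-L1 1 or 2 (0.0558 to 0.0687), and ZNF326 without ASO-L1 3 or 4 or SO-L1 1 or 2 (0.0887 to 0.107). ZNF335 lost its call without ASO-L1 2, 3 or 4 or SO-L1 1 or 2 (0.0519 to 0.116), ZNF592 without any ASO-L1 library or SO-L1 2, 3 or 4 (0.0505 to 0.131), and ZNF687 without ASO-L1 1, 3 or 4 or any SO-L1 library (0.0544 to 0.0890). Library total scaling ended the calls of ZNF326 (adjusted p = 0.0613), ZNF335 (0.0539) and ZNF592 (0.0717), and the fit without the filter those of ZNF143 (0.0986), ZNF592 (0.0749) and ZNF687 (0.210). ZNF143 was also lost in numbers 3 and 4 (0.0982) and ZNF687 in numbers 1 and 2 (0.158). ZNF326 had 77.7, 78.8, 86.4 and 87.96 CPM in ASO-L1 and 65.4, 71.3, 76.5 and 75.2 CPM in SO-L1 (0.20 ± 0.06, edgeR adjusted p = 0.0393), without overlap, and ZNF143 had 35.3, 34.1, 32.6 and 32.4 CPM in ASO-L1 and 28.6, 30.2, 30.6 and 29.1 CPM in SO-L1 (0.18 ± 0.05, edgeR adjusted p = 0.0170), also without overlap.

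SO-L1 against ASO-Ctr compares the sense and control oligos, and 0 of the 330 members were higher and 0 lower by edgeR, where 5 genes of all tested, 0.029%, were lower and 0 higher. At an unadjusted p under 0.05 there were 0 higher and 5 lower members, DESeq2 called 0 and 1, and the block fit 0 and 4. With the block, 0.424% of all genes tested were higher and 0.987% lower, 1.41% in either direction, and 0.606% of genes of at least 10 CPM were higher and 1.48% lower, 2.09% in either direction. All SO-L1 libraries lay above the ASO-Ctr libraries for 1 member and below them for 3, against 1.04 and 1.26% of all genes tested and 0.878 and 1.49% of genes of at least 10 CPM. The member with the smallest p was ZNF638, with 182, 188, 169.96 and 185 CPM in ASO-L1, 175, 176, 163 and 164 in SO-L1 and 213, 223, 189.99 and 209 in ASO-Ctr. ASO-Ctr was the highest group in every number, and ASO-L1 and SO-L1 both lay wholly below it. The log2 fold change was -0.30 ± 0.05 for SO-L1 against ASO-Ctr (edgeR adjusted p = 0.0821, and 5.10e-08 with the block), -0.20 ± 0.05 for ASO-L1 against ASO-Ctr and 0.09 ± 0.05 for ASO-L1 against SO-L1 (edgeR adjusted p = 0.241, and 0.0133 with the block). Both comparisons with ASO-Ctr share its 4 libraries. The block called ZNF638, and called ZNF510, ZNF423 and ZNF813 as well, which are named after their values were seen. ZNF510, a gene on chromosome 9, had 18.9, 17.2, 18.9 and 20.2 CPM in SO-L1 and 21.1, 20.8, 23.6 and 21.8 CPM in ASO-Ctr (-0.21 ± 0.07), with no overlap.

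By position, 154 members lie on chromosome 19, of which 25 rose and 10 fell in ASO-L1 relative to ASO-Ctr, and 176 on other chromosomes, of which 32 were higher and 11 lower. Over all 330 members 57 were higher and 21 lower, and of all genes of at least 10 CPM 13.1% were higher and 14.4% lower. No difference by position was tested. The medians were 0.08 on chromosome 19 and 0.03 elsewhere, and against SO-L1 the counts were 28 and 10 on chromosome 19 and 30 and 8 elsewhere. The 6 members on chromosome 15 were all below 0, with 2 called lower, and the 9 on chromosome 10 had no call; these chromosomes were picked out after their values were seen. In RefSeq order, 175 members formed 54 runs of adjacent protein-coding genes with 121 neighbouring pairs. Against ASO-Ctr both genes were higher in 4 pairs, both lower in 0, called in opposite directions in 0, and 1 of the pair was called in 42, while 75 pairs had no call. Neighbouring pairs of other genes were not counted for comparison. The longest run, 12 genes on chromosome 19 that start with ZNF551 and end with ZNF256, held 3 higher and 0 lower genes. A run of 10 on chromosome 19, ZNF577 to ZNF836, held 1 higher and 2 lower genes, so these 10 did not move as 1 block. Other runs on chromosome 19 had like signs. ZNF566, ZNF260 and ZNF529 were 3 of 3 higher, and of 5 members from ZNF766 to ZNF528 0 were above 0, with no call. These runs were picked out after their values were seen.

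Related genes also differed. ZNF354A and ZNF354B, close copies on chromosome 5, were both higher in ASO-L1 (0.38 ± 0.07 and 0.35 ± 0.08), while ZNF354C had 0.06 ± 0.11. ZNF780B had -0.65 ± 0.16 and its neighbour and close copy ZNF780A 0.00 ± 0.08. ZNF280B had 0.48 ± 0.07, ZNF280C a value within 0.01 of 0 and ZNF280D -0.15 ± 0.09. No test was made of the difference between such genes. How reads that match several copies were counted is not given in the sources used here, so values of close copies are uncertain. The B, C and D genes of such sets and ZNF354B are named for their symbols, apart from the rule for named genes.

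The calls varied with the genomic span of the gene in RefSeq. Among the 110 members with the shortest span, 2.24 to 17.8 kb, 26 rose and 4 fell in ASO-L1 relative to ASO-Ctr (23.6 and 3.64%), and of the 2743 genes of at least 10 CPM within the same limits 17.6% were higher and 5.54% lower. Of the middle 110, 17.8 to 31.98 kb, 19 and 6 were called (17.3 and 5.45%), against 17.3 and 7.85% of 1593 genes. Of the longest 110, 32.2 to 468 kb, 12 and 11 were called (10.9 and 10.000%), against 9.28 and 21.4% of 4452 genes. The share called higher was smaller, and the share called lower larger, in longer genes, among the members as among all genes of that level. In the middle and longest groups the members' share of higher genes lay near that of genes of like span, and in the shortest group it was larger. The members' share of lower genes was below that of genes of like span in every group, most in the longest (10.000 against 21.4%). None of these differences was tested. This split was made after the calls were known.

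Of the 282 members with a RefSeq promoter used here, 49 were higher, 17 lower and 216 not called in ASO-L1 against ASO-Ctr, and 27305 promoters of all genes served as background. Each motif was searched on both strands in the 250 bases before the start, and windows with any match were counted. ETS letters (CCGGAAG) stood in 34.7% of the promoters of higher members, 17.6% of lower members and 30.6% of members not called, against 8.82% of all promoters. CCAAT letters stood in 53.1, 29.4 and 44.0% of them, against 33.04% of all promoters, and SP1 letters (GGGCGG) in 57.1, 58.8 and 63.4%, against 42.3%. ZNF promoters thus held ETS letters more often than promoters at large whether or not the gene was called. That background was not limited to genes of at least 10 CPM. Its windows had a median of 11 CpG sites (C followed by G) and 58.0% GC, and those of the members 18 and 61.6%. No background of like level or CpG number was used, so the excess cannot be assigned to ZNF genes as such. The cyclic AMP response element (CRE, TGACGTCA), read by the CREB and ATF factors, stood in 5 of 49 promoters of higher members (10.2%), 0 of 17 of lower members and 6 of 216 of members not called (2.78%), against 1.77% of all promoters. AP-1 (TGANTCA), C/EBP-ATF (TGATGNAA) and NRF1 letters stood in 6.12, 0 and 0% of the promoters of higher members, against 6.60, 3.19 and 1.13% of all promoters. The letters searched overlap between motifs in part, a match is no proof of binding, and no test of these shares was made.

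The 5 higher members with a CRE match are shown with 60 bases around it, since its share was 10.2% among higher members and 2.78% among members not called; they are named for the match, after their values were seen. Capitals mark the CRE, and each run is 5′ to 3′ on the strand of the gene, from RefSeq on build GRCh38.p14.
ZNF501 (chr3:44729575-44729634, plus strand): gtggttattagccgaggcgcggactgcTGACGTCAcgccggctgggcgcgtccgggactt
ZNF200 (chr16:3235178-3235237, minus strand): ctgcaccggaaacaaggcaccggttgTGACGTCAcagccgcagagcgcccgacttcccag
ZNF330 (chr4:141220835-141220894, plus strand): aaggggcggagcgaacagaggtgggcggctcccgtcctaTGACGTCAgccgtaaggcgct
ZNF335 (chr20:45972387-45972446, minus strand): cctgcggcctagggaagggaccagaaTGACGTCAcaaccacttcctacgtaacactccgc
ZNF266 (chr19:9435574-9435633, minus strand): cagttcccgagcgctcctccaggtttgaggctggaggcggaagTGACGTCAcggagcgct
The match lies between 9 and 209 bases before the start of the gene. ZNF200 had 21.7, 19.996, 26.3 and 25.5 CPM in ASO-L1, 14.1, 13.1, 17.2 and 16.995 in SO-L1 and 14.6, 14.4, 18.03 and 17.5 in ASO-Ctr (0.53 ± 0.12, edgeR adjusted p = 0.00577), and all ASO-L1 libraries were above all others. ZNF501 (0.36 ± 0.08), ZNF335 (0.31 ± 0.09), ZNF330 (0.22 ± 0.06) and ZNF266 (0.18 ± 0.06) rose less. ZNF200 and ZNF501 were among the 34 higher members called in every alternative fit, and ZNF335, ZNF330 and ZNF266 were not. Against SO-L1, ZNF266 did not pass (edgeR adjusted p = 0.0532), while the others did.

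**Figure D4:**
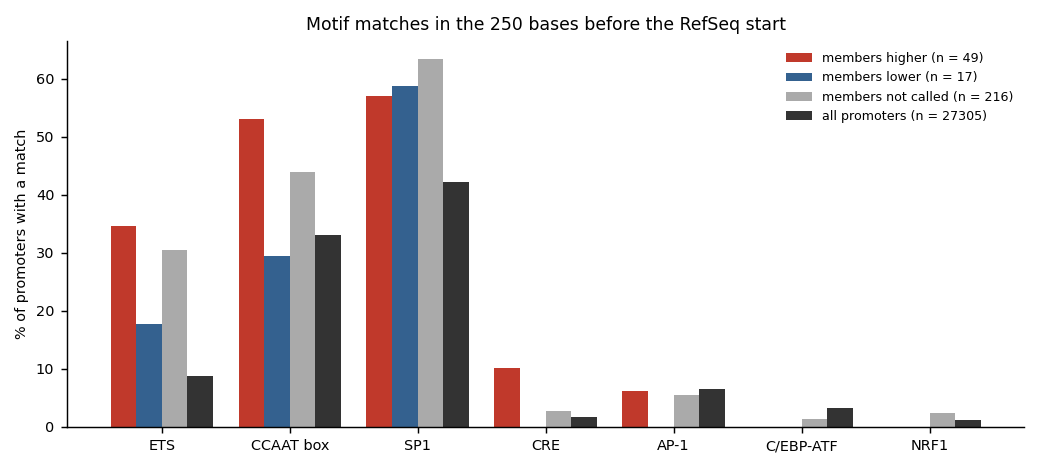
Share of promoters with at least 1 match (vertical, %) for 7 motifs (horizontal), in red for the 49 higher members of ASO-L1 against ASO-Ctr, blue for the 17 lower, grey for members not called (216) and black for all promoters (27305). ETS bars of all 3 member groups stand above the 8.82% of all promoters, and the CRE bar is 10.2% for higher members.

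Libraries of 1 group differed between numbers 1 and 2 on one side and 3 and 4 on the other. In a principal component analysis of the 330 members, the first component held 51.2% of the variance and separated these 2 sets. The second held 32.6% and separated ASO-L1 from SO-L1 and ASO-Ctr. Neither held set or group alone. Within each set ASO-L1 also lay higher on the first component than the other groups. Within each group numbers 1 and 2 lay above 3 and 4 on the second. Within ASO-Ctr the median size of the log2 difference between the sets was 0.146 over the members, next to 0.122 for ASO-L1 against ASO-Ctr and 0.0398 for SO-L1 against ASO-Ctr. Calls were therefore also made within each set of 2 libraries per group. Over the members, the mean squared difference between libraries of a group was 1.44 to 2.04 times counting noise within a set. Across sets it was 9.16 to 12.6 times counting noise. Calls within a set thus rest on a spread not far above counting noise, and do not measure the spread between sets. They use the libraries of the main calls again. Numbers 1 and 2 gave 85 higher and 34 lower members against ASO-Ctr, where 22.0 and 23.7% of genes of at least 10 CPM were called in the same fit. Numbers 3 and 4 gave 94 and 44, where 20.9 and 24.8% of those genes were called. Of the 57 and 21 members called over all numbers, 53 and 16 were called in the first set and 52 and 20 in the second. For ASO-L1 against SO-L1 the first set gave 89 and 40 (22.4 and 22.4% of those genes) and the second 107 and 34 (20.7 and 23.6%). For SO-L1 against ASO-Ctr the first set gave 0 and 2 (0.384 and 0.717%) and the second 0 and 1 (0.525 and 1.17%). A test of the difference between the sets found 0 members for ASO-L1 against ASO-Ctr (0.778% of all genes tested), 3 for ASO-L1 against SO-L1 (1.76%) and 0 for SO-L1 against ASO-Ctr.

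**Figure D5:**
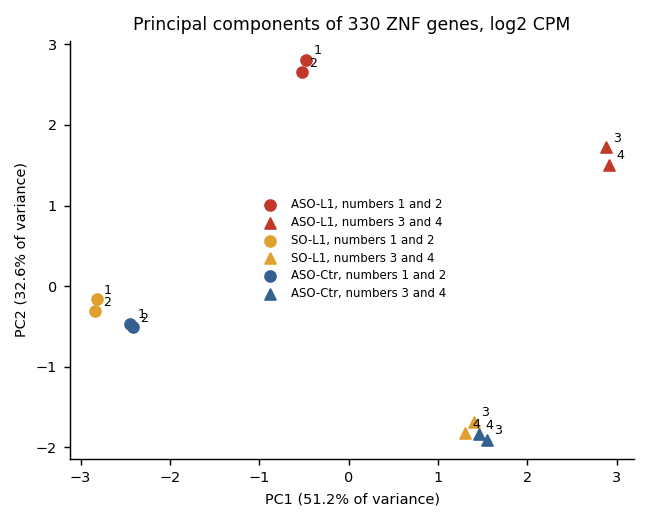
First (horizontal, 51.2% of variance) and second (vertical, 32.6%) principal component of log2 CPM over the 330 ZNF genes, 1 point per library, coloured by group and labelled with the library number. Numbers 1 and 2 (circles) lie left of 3 and 4 (triangles) within each group, and ASO-L1 lies above SO-L1 and ASO-Ctr.

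Summed over the 330 members, the level was 12483, 12484, 12256 and 12155 CPM in ASO-L1, 12205, 11968, 11782 and 11704 CPM in SO-L1 and 12129, 12079.6, 11947 and 11954 CPM in ASO-Ctr. ASO-L1 libraries lay above all ASO-Ctr libraries. They overlapped with SO-L1 over all numbers, but lay above it in all 4 same-number pairs and without overlap within numbers 1 and 2 and within 3 and 4. The sum was 2.63% higher in ASO-L1 than in ASO-Ctr (exact permutation test over 70 splits, two-sided, p = 0.0286, the smallest it can give, adjusted p = 0.0857 over 3 comparisons) and higher in all 4 pairs, and 3.61% higher in ASO-L1 than in SO-L1 (exact permutation p = 0.0571, adjusted p = 0.0857). These splits do not use the library numbers. The sum in SO-L1 differed by -0.939% relative to ASO-Ctr (exact permutation p = 0.4). The sum rests most on the members with the highest counts.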

How the data were processed

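RNA-seq was measured in 12 libraries of H9 cells, 4 each of ASO-L1, SO-L1 and ASO-Ctr. Reads were trimmed with Trim Galore 0.4.0, aligned with TopHat2 2.0.13 to hg19 and counted with featureCounts of Subread 1.5.0, per the submitters' processing notes; how strand and reads with several matches were counted is not given in the sources used here. The deposited raw counts per gene were the input of every test. The header of the deposited count table is shifted by 1 column, so columns were read by position, and the authors' batch-corrected log2 table served only to check this (12 of 12 libraries matched best). The row without a gene name held at most 1.30e-05 percent of a library. For ASO-L1 and SO-L1, a table deposited by the authors holds log2 fold changes and p-values of their own.

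Genes were kept by filterByExpr (least count 10, least total 15), which left 17228, scaled by TMM and tested with edgeR 4.0.16 in R 4.3.3 (quasi-likelihood F test, all 12 libraries, Benjamini-Hochberg over all genes). CPM values use TMM, and SE is the size of the log2 fold change over the square root of F. Tested on simulated data for ASO-L1 against ASO-Ctr (17228 genes, 50 changed per fold), the fit recovered 90% of genes changed 3-fold, 70% changed 2-fold, 48% changed 1.5-fold and 20% at the smallest fold simulated, which was close to the median change of called members, with 3 false calls. The changed genes were drawn at random from all genes tested, low-count genes included. Recovery among genes of at least 10 CPM was not measured. Alternatives were DESeq2 1.42.0, limma-voom (limma 3.58.1), RLE or library total scaling, no filter, the library number as a block, numbers 1 and 2 or 3 and 4 alone, and each library left out. The numbers were taken as the block and as pairs. Deviations from group means correlated between all same-number libraries (r between 0.450 and 0.561). Libraries of the other number in the same set correlated about as much (0.455 to 0.543), and those of the other set negatively (-0.530 to -0.426). These correlations thus show the 2 sets and do not show a pairing by number. A block by set alone was not fitted. Named genes were the 12 called members per direction with the smallest p against ASO-Ctr and 8 against SO-L1, members of the lists, and the members with the highest level. The members and lists were chosen with earlier results of these data known. Depth was 20367989 to 32180891 counts per library.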

Additional observations from a re-analysis of the deposited data

Results flagged for a closer look

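Among 207 groups of 4 libraries checked for the named genes, 8 held 1 library far from the other 3, where chance flags about 1 in 20. ZNF207 had 226 CPM in ASO-L1 4, and ZNF687 had 74.2 CPM in the same library. ZNF354A had 20.2 CPM and ZNF649 151 CPM in SO-L1 4, and ZNF445 had 37.9 CPM in SO-L1 3. In ASO-Ctr 1, ZNF398 had 133 CPM, ZNF669 17.8 CPM and ZNF793 39.3 CPM. ZNF793 was the highest of its group and the other 7 values were the lowest of theirs.

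For ASO-L1 against SO-L1, the log2 fold change in numbers 3 and 4 differed from that in numbers 1 and 2 for 3 members (edgeR quasi-likelihood test of the interaction). The difference was 0.47 for ZNF518B (adjusted p = 0.0147), -0.36 for ZNF423 (adjusted p = 0.0298) and 0.43 for ZNF432 (adjusted p = 0.00933).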

How the results depend on the processing

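No called named gene changed sign under the alternatives run, and none was called with the other sign. Values without a call did change sign in some alternative, for 13 of 67 named genes in ASO-L1 against ASO-Ctr, 12 of 59 in ASO-L1 against SO-L1 and 20 of 44 in SO-L1 against ASO-Ctr. With the library number as a block, ASO-L1 against ASO-Ctr had 114 higher and 50 lower members, ASO-L1 against SO-L1 122 and 49, and SO-L1 against ASO-Ctr 0 and 4; the block ended no call of the 57, 21, 58 and 18. Numbers 1 and 2 alone gave 85 and 34, 89 and 40, and 0 and 2 for these comparisons, and numbers 3 and 4 gave 94 and 44, 107 and 34, and 0 and 1. Without the filter on low counts, 10 members were lower in ASO-L1 than in SO-L1. DESeq2 called 1 member lower in SO-L1 than in ASO-Ctr. Leaving out 1 library gave 42 to 59 higher and 16 to 23 lower members against ASO-Ctr, 43 to 57 and 12 to 19 against SO-L1, and 0 and 0 to 1 for SO-L1 against ASO-Ctr, the 1 without ASO-Ctr 3. The summed level, with alternatives chosen after seeing the data, was 3.04% higher in ASO-L1 than in ASO-Ctr and 3.74% higher than in SO-L1 under library total scaling (exact permutation test, adjusted p = 0.0429 each), and 2.18% and 3.36% higher under RLE scaling (adjusted p = 0.171 each). Without 1 library these differences were 2.25 to 3.16% and 2.999 to 4.45%, and -1.74 to -0.356% for SO-L1 against ASO-Ctr. The causes were not tested. Changes under 1.5-fold were recovered in part in the simulated data, which drew on genes of all levels, so members without a call may still differ.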
